A study of Schizosaccharomyces pombe with 8 samples.

Results

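Spore formation genes of the fission yeast Schizosaccharomyces pombe were followed in haploid cells exposed to mating pheromone. The set holds 10 genes chosen by name for a part in spore formation, late in sexual differentiation (spo3, spo4, spo5, spo6, spo14, spo15, spo20, psy1, meu14 and mde10). It was used to ask whether their RNA changed with pheromone. The products of spo14, spo20 and psy1 belong to vesicle transport, lipid transfer and the plasma membrane, and their roles outside spore formation were not tested. A change in such a gene therefore does not show how far into the programme the response reached. All 10 were spotted, each with 2 spots, among 4751 named genes on the arrays.

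The study held 8 two-colour arrays. M cells (h- Δmat2,3::LEU2 cyr1::ura4+ ura4-D18 sxa2) received P-factor and P cells (h+ Δmat2::LEU2 cyr1::ura4+ ura4-D18) received M-factor, both at 1 μg/ml in nitrogen-containing minimal medium. RNA of 2, 4 and 6 h was hybridised against the untreated 0 h RNA of the same culture, and a further pair of arrays set M cells directly against P cells, untreated and after 6 h of treatment. Both strains, and so the untreated controls too, lack adenylate cyclase (cyr1), which lets cells respond to pheromone without starvation, and the M strain also lacks Sxa2, the protease that degrades P-factor. Each culture held 1 mating type, so no mating, zygote or spore can form in it. Each array had no replicate, and the time points of a course stood in for replicates.

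Starved M and P cells exchange pheromones, arrest, fuse and form a diploid zygote, which passes through meiosis and makes spores. During the meiotic divisions the spindle pole bodies change shape and a double membrane, the forespore membrane, grows from them around each nucleus, after which the spore wall is laid down inside it. The HMG-box factor Ste11 turns on early genes of mating and meiosis, whereas the forkhead factor Mei4 turns on many genes of the meiotic divisions and of spore formation. mde10 takes its name from its dependence on Mei4.

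The Ste11 site is the sequence through which Ste11 acts on early genes, and it is shown here because mde10 was the only spore formation gene for which the study listed a putative site. The sequence most often listed, TTTCTTTGTT, can lie on either strand and then appears as AACAAAGAAA. The site of mde10 is set beside those of the pheromone response genes fus1 and spk1 and of the regulators ste11, mei2 and mei4. Capitals mark the putative site and lower case its flanks.
mde10: tgctTTTCTTTGTTttat
fus1: accgAACAAAGAAAgtta
spk1: aaacTTTCTTTGTTattg
ste11: gttgTTTCTTTGTTgcaa
mei2: ctctTTTCTTTGTTtgtt
mei4: aaaaAGCAAAGAAAatta
The site of mde10 matched this sequence in every base, as did those of fus1, spk1, ste11 and mei2, and the site of mei4 differed from it at 1 base. Of 161 listed sites 34 had this sequence. The list covered only genes that the study had selected on these arrays, so a gene outside it was not searched here, and a match is a description and not a shown binding site.

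The arrays themselves limited what could be seen. Between 1.98% and 5.03% of genes lacked a value on 5 of the time course arrays, but 13.1% lacked one on the P-factor 2 h array, among them spo3, spo14 and meu14. Spots of the same gene differed by a median SD of 0.28 on the log2 scale over all genes and of 0.32 over the 10 spore formation genes. The spots were double-stranded PCR products, on which transcripts of either strand bind alike, and no spot intensities were used here, so signal over background is unknown. On the direct arrays most cell type markers stood as the labels have it. The M-cell pheromone exporter gene mam1 and the P-factor receptor gene mam2 had log2 ratios of M over P cells of 2.09 and 3.05 after treatment, against 2.15 and 1.65 untreated. The P-factor precursor gene map2 and the M-factor receptor gene map3 had -3.12 and -3.53 after treatment, against -2.94 and -1.23 untreated. The P-cell gene map4 was at 0.06 after treatment and 0.07 untreated. Of the markers listed, 5 of 9 M-cell genes and 3 of 4 P-cell genes had a named spot, and sxa2 is disrupted in the M strain.

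Of the 10 genes, 2 rose with both pheromones. These were mde10, which codes for a metalloprotease of the ADAM family needed for a normal spore envelope, and spo14, which codes for a relative of the Sec12 protein of vesicle transport from the endoplasmic reticulum. A further pair, the forespore membrane gene spo3 and the lipid transfer protein gene spo20, fell with M-factor in P cells. The remaining 6 genes passed the test with neither pheromone. In a limma fit of the mean over the time points, with Benjamini-Hochberg adjustment over all genes and an adjusted p of at most 0.05, this was 2 up and 0 down of 10 with P-factor, where 17.4% of all 4522 genes rose and 17.1% fell. With M-factor it was 2 up and 2 down of 10, where 24.3% of all genes rose and 22.4% fell. Against these shares the spore formation genes were not called more often than other genes, and nothing particular to them is read from the counts. The median of the 10 means was 0.15 with P-factor and -0.24 with M-factor on the log2 scale, against -0.01 with P-factor and -0.01 with M-factor over all genes. These counts come from a fit that allowed missing values. In the fit restricted to the 4093 genes with all 6 values, which holds 7 of the 10, mde10 was the 1 gene called up of 7 with each pheromone (18.1% of all genes with P-factor and 24.1% with M-factor). In that fit 0 of 7 were called down with P-factor (18.3% of all genes) and spo20 was the 1 called down with M-factor (23.2%). Each value is a ratio in RNA of a whole culture, so more RNA per cell and more responding cells cannot be told apart.

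**Figure D1:**
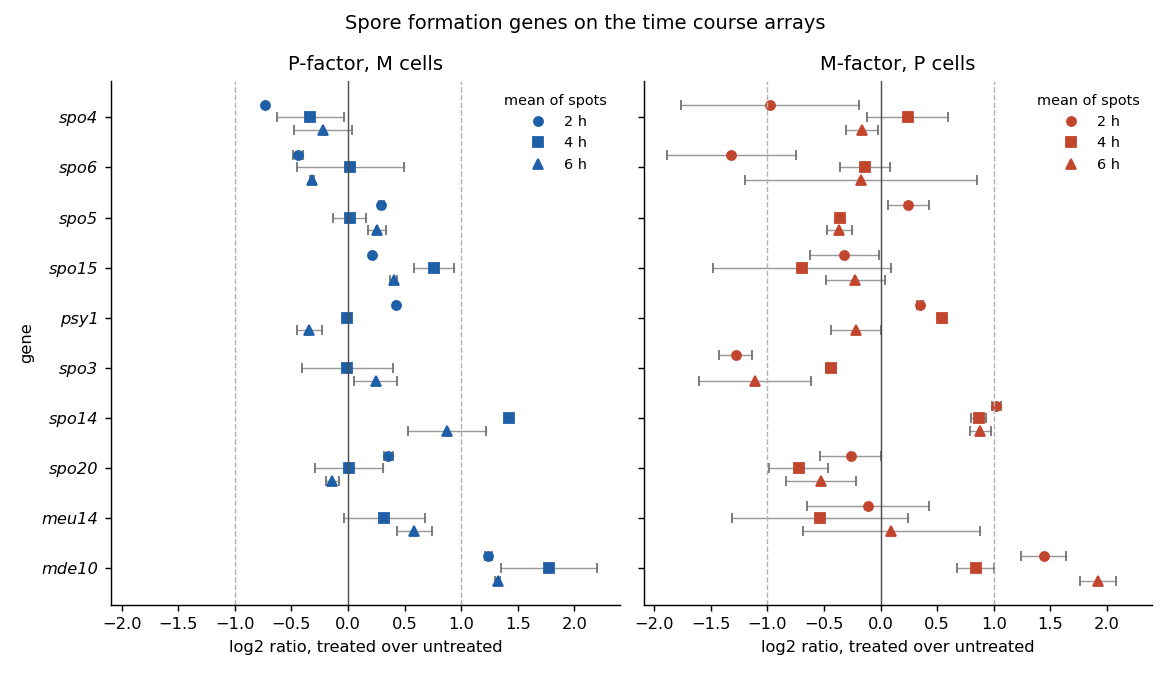
Log2 ratio of treated over untreated RNA for each of the 10 spore formation genes, with P-factor in M cells on the left and M-factor in P cells on the right. Points are the means of the spots at 2, 4 and 6 h, bars run to the lowest and highest spot (no bar where 1 spot had a value), and dashed lines mark 2-fold. mde10 and spo14 lie above 0 at every measured time point on both sides, and spo3, spo6, spo15 and spo20 lie below 0 at every time point with M-factor.

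mde10 gave the largest means of the 10 genes with either pheromone. Its log2 ratio was 1.24 at 2 h, 1.77 at 4 h and 1.32 at 6 h with P-factor, against 1.44, 0.84 and 1.92 at the same times with M-factor. All 6 values were above 0 and the courses overlapped. Each of its 6 spot values was positive with each pheromone, between 1.21 and 2.20 with P-factor and between 0.68 and 2.08 with M-factor. The mean was 1.44 with P-factor (SE 0.21, n = 3 time points, 2.72-fold, adjusted p = 0.00114 by limma) and 1.40 with M-factor (SE 0.21, n = 3, 2.64-fold, adjusted p = 0.000828 by limma). The courses differed by 0.04 (95% interval -0.62 to 0.71), with an adjusted p of 0.933 by limma, so a difference within that interval was not resolved. By the rule of at least 2-fold at each time point, mde10 was the 1 spore formation gene past the threshold with P-factor, where 3.24% of genes rose, and the 4 h value kept it below that rule with M-factor, where 4.25% of genes rose. Of the other 9 genes, 3 of which had no 2 h value with P-factor and could not be judged there, none passed this rule in either direction with either pheromone, where 2.34% of genes fell with P-factor and 2.6% with M-factor.

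spo14 gave smaller but closely spaced ratios. Its log2 ratio was 1.42 at 4 h and 0.87 at 6 h with P-factor, with no value at 2 h, against 1.02, 0.87 and 0.88 at 2, 4 and 6 h with M-factor. All 5 values lay above 0 and the courses overlapped. The M-factor spots ranged from 0.79 to 1.06, whereas the P-factor course rested on 3 spot values, 1 at 4 h and those of 0.53 and 1.22 at 6 h. The mean was 1.15 with P-factor (SE 0.20, n = 2 time points, 2.21-fold, adjusted p = 0.00379 by limma) and 0.92 with M-factor (SE 0.16, n = 3, 1.9-fold, adjusted p = 0.00238 by limma), from the fit that allowed missing values. The P-factor call did not hold without the 4 h array (mean 0.87, adjusted p = 0.0912 by limma) or with the first spot alone (0.53, adjusted p = 0.34 by limma). The M-factor call held under 15 of 16 partly overlapping alternatives. It missed only in a test of more than 1.5-fold (adjusted p = 0.2 by limma), which the P-factor mean missed too (adjusted p = 0.151 by limma). The difference of 0.22 between the courses (95% interval -0.36 to 0.81, adjusted p = 0.606 by limma) was within the spread of the time points.

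The genes of the forespore membrane other than spo14 gave no shared direction. Spo3 is a protein of this membrane, Psy1 is a syntaxin of the plasma membrane and the forespore membrane, Spo20 belongs to the Sec14 family of lipid transfer proteins, and Meu14 sits at the leading edge of the growing membrane. spo3 had log2 ratios of -0.01 at 4 h and 0.24 at 6 h with P-factor, with no value at 2 h, against -1.28, -0.44 and -1.11 at 2, 4 and 6 h with M-factor. All 3 M-factor values and all 6 M-factor spots were below 0, and the courses did not overlap. Its mean was 0.12 with P-factor (SE 0.23, n = 2, adjusted p = 0.717 by limma) and -0.94 with M-factor (SE 0.19, n = 3, 1.92-fold lower, adjusted p = 0.00455 by limma). spo3 fell with M-factor under 15 of 16 partly overlapping alternatives, with means between -1.20 and -0.78. It missed only in a test of more than 1.5-fold (adjusted p = 0.26 by limma). The difference of the courses, 1.06 (95% interval 0.37 to 1.75), did not pass the adjustment over all genes (adjusted p = 0.0777 by limma), so a different response in M and P cells was not shown.

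spo20 had log2 ratios of 0.36, 0.01 and -0.14 at 2, 4 and 6 h with P-factor, against -0.27, -0.72 and -0.53 with M-factor. The P-factor values lay on both sides of 0, the M-factor values below it, and the courses did not overlap. Its mean was 0.08 with P-factor (SE 0.16, n = 3, adjusted p = 0.737 by limma) and -0.51 with M-factor (SE 0.16, n = 3, 0.704-fold, adjusted p = 0.027 by limma). The M-factor call was lost with the second spot alone (mean -0.23, adjusted p = 0.361 by limma), without the M-factor 4 h array (-0.40, adjusted p = 0.125 by limma) and without the M-factor 6 h array (-0.50, adjusted p = 0.0808 by limma). The difference of 0.58 between the courses had an adjusted p of 0.142 by limma.

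psy1 and meu14 passed no test. psy1 had log2 ratios of 0.42, -0.01 and -0.34 at 2, 4 and 6 h with P-factor, against 0.35, 0.54 and -0.22 with M-factor. Both courses had their lowest value at 6 h. psy1 had the lowest median spot SD of the 10 genes, at 0.04, but its spots differed more at 6 h. The SD there was 0.16 with P-factor and 0.31 with M-factor, and the P-factor 2 h value rested on 1 spot. The slope per hour shared by both courses was -0.17 (unadjusted p = 0.0338 and adjusted p = 0.414, both by limma). meu14 had 0.32 at 4 h and 0.58 at 6 h with P-factor, with no value at 2 h, against -0.11, -0.53 and 0.09 at 2, 4 and 6 h with M-factor. Its spots disagreed most among the 10 genes, with a median SD of 0.77, and its M-factor spots ran from -1.31 to 0.88. Its mean was 0.45 with P-factor (SE 0.21, n = 2, adjusted p = 0.126 by limma) and -0.18 with M-factor (SE 0.17, n = 3, adjusted p = 0.4 by limma).

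spo15 codes for a coiled-coil protein of the spindle pole body that is needed for the forespore membrane to form there. Its log2 ratios were 0.21, 0.76 and 0.40 at 2, 4 and 6 h with P-factor, against -0.32, -0.70 and -0.22 with M-factor. It was the 1 gene of the 10 with every P-factor value above 0 and every M-factor value below 0. Its mean was 0.46 with P-factor (SE 0.16, n = 3, adjusted p = 0.054 by limma) and -0.41 with M-factor (SE 0.16, n = 3, adjusted p = 0.0637 by limma). The difference of 0.87 (95% interval 0.35 to 1.39, adjusted p = 0.0624 by limma) also stayed above the threshold, although it passed after quantile normalisation (adjusted p = 0.0432 by limma). The M-factor values rested on 1 of the 2 spots, since the first spot gave -0.63, -1.48 and -0.48 and the other -0.01, 0.09 and 0.04.

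spo4 and spo6 code for the catalytic and the regulatory subunit of a kinase of the Cdc7-Dbf4 type that is needed for the meiotic divisions and spore formation to proceed, and spo5 for an RNA-binding protein of the same period. spo4 had log2 ratios of -0.73, -0.33 and -0.22 at 2, 4 and 6 h with P-factor, against -0.98, 0.24 and -0.17 with M-factor. spo6 had -0.44, 0.02 and -0.32 with P-factor, against -1.32, -0.14 and -0.18 with M-factor. By the means of the spots both subunits had their lowest value of each course at 2 h, and their values at 4 and 6 h lay nearer 0. The spo4 P-factor value at 2 h rested on the second spot alone, which stayed low (-0.73, -0.63 and -0.48). Its first spot gave -0.04 at 4 h and 0.03 at 6 h. The first spot was lowest at 6 h for spo4 with M-factor (-0.31) and at 4 h for spo6 with P-factor (-0.45). The other spots with a 2 h value were lowest at 2 h. The slope per hour was 0.16 for each subunit, with adjusted p of 0.517 for spo4 and 0.557 for spo6 by limma, so the change over time was not resolved. The mean of spo6 was -0.25 with P-factor (SE 0.23, adjusted p = 0.43 by limma) and -0.54 with M-factor (SE 0.23, adjusted p = 0.0778 by limma), and the M-factor mean passed when the time point was added as a block (adjusted p = 0.0322 by limma). The spo6 M-factor mean rested on the first spot, which gave -1.15 alone (adjusted p = 0.0106 by limma), against 0.06 for the second spot alone (adjusted p = 0.893 by limma), and on the 2 h array, without which it was -0.16 (adjusted p = 0.487 by limma). The mean of spo4 was -0.43 with P-factor (adjusted p = 0.159 by limma) and -0.30 with M-factor (adjusted p = 0.287 by limma). spo5 had 0.29, 0.02 and 0.26 with P-factor, against 0.24, -0.36 and -0.36 with M-factor, and its means of 0.19 and -0.16 had adjusted p of 0.398 with P-factor and 0.448 with M-factor by limma.

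**Figure D2:**
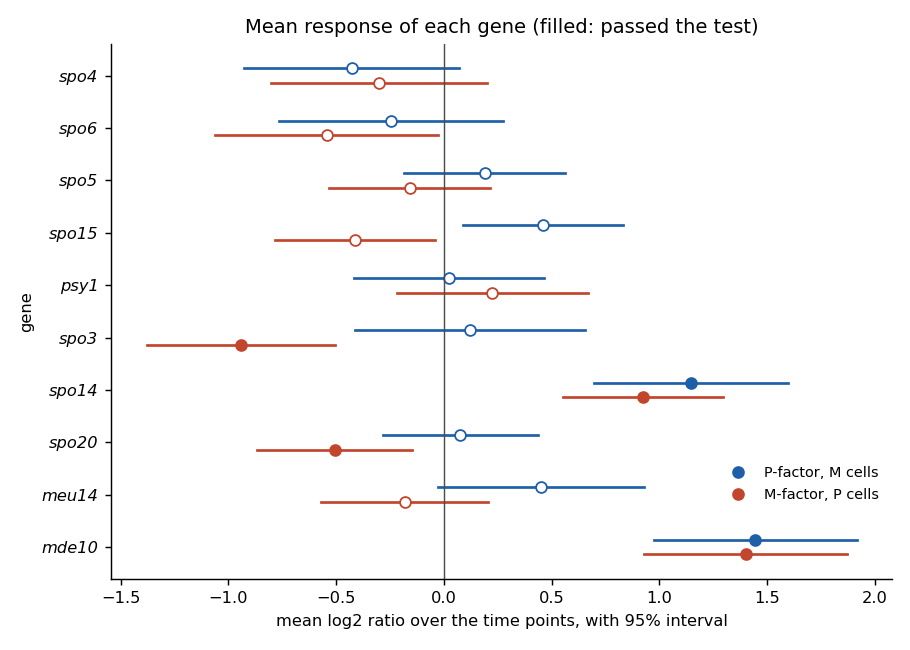
Mean log2 ratio of treated over untreated RNA for each gene, with P-factor in M cells above M-factor in P cells and 95% intervals of the limma fit (the fit allowing missing values for spo3, spo14 and meu14, the fit on genes with all 6 values for the others). Filled points passed an adjusted p of 0.05: mde10 and spo14 with both pheromones, spo3 and spo20 with M-factor, at -0.94 and -0.51.

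The test of the difference between the courses called 0 of the 10 genes in either direction by limma, where 2.43% of all genes were higher and 2.03% lower with P-factor. At an unadjusted p under 0.05 it gave 4 of 10 genes, spo3, spo15, spo20 and meu14, in each of which P-factor was higher, where 13.1% of all genes were higher and 13.2% lower. The same 4 of 10 genes had every P-factor value above every M-factor value, against 16.3% of all genes. The opposite order was held by 0 of 10, against 17.7% of all genes. These shares are not like for like, since spo3 and meu14 had only 2 P-factor values, which separate more easily than 3. On the P-factor 2 h array 3 of the 10 genes lacked a value, against 13.1% of all named genes. The order was read from the same values as the test, so it adds no separate evidence. The slope per hour called 0 of 10 genes by limma, and at an unadjusted p under 0.05 it gave psy1 alone, with a negative slope, where 5.95% of all genes had a positive and 5.53% a negative slope. Over all genes the slope called 0.0442% up (0.0489% in the fit on genes with all 6 values) and 0% down, so the fit resolved a change between 2 and 6 h for almost no gene on the arrays.

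The direct arrays of M against P cells showed small differences for the 10 genes. None reached 2-fold, which 0.442% of genes did after treatment and 0.842% untreated. After treatment the log2 ratios of M over P cells ran from -0.34 for spo5 to 0.29 for spo6, and in untreated cells from -0.52 for spo5 to 0.31 for spo6. spo5 and spo6 thus kept their sign on both arrays, spo5 lower and spo6 higher in M cells. For spo3 the array of treated cells gave 0.08 and that of untreated cells -0.21, a change of 0.28, whereas the time courses at 6 h differed by 1.35 (P-factor minus M-factor). For spo15 the direct arrays gave 0.08 treated and -0.17 untreated, a change of 0.26, against 0.63 from the time courses. For spo20 and meu14 the direct arrays changed by -0.08 and -0.13, against 0.39 and 0.49 from the courses, so the signs were opposite. For mde10 they gave 0.00 treated and -0.07 untreated, a change of 0.06, against -0.60 from the courses, again of opposite sign. Over the 10 genes the sign was the same for 5 (spo3, spo4, spo5, spo6 and spo15) and opposite for 5. These are single arrays with no test, and the log base of the treated array is likely but not settled. A check of the base of the untreated array is not given here.

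**Figure D3:**
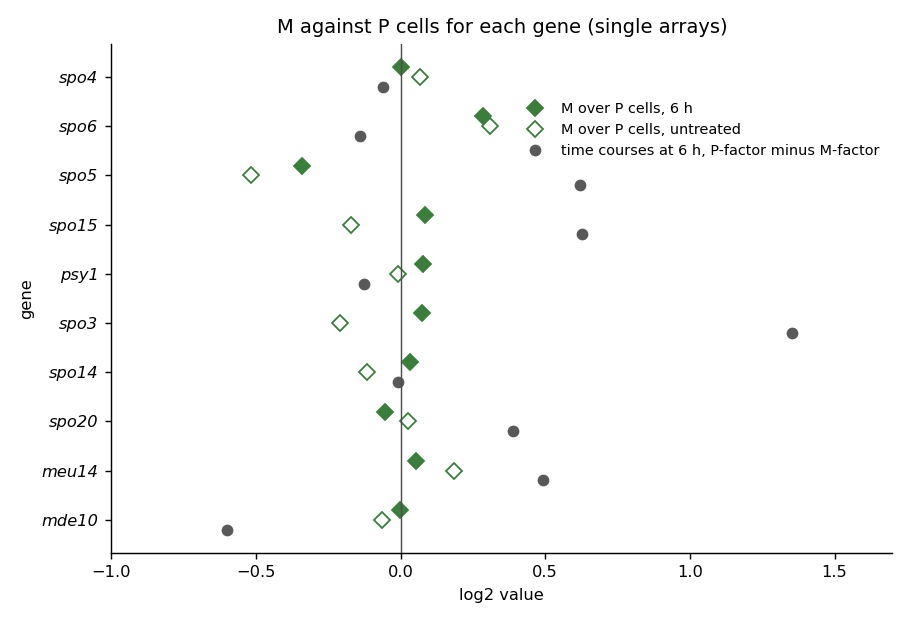
Log2 ratio of M over P cells after 6 h of pheromone (filled diamonds) and untreated (open diamonds) for each gene, beside the difference of the time courses at 6 h, P-factor minus M-factor (grey circles). The diamonds lie between -0.52 and 0.31, whereas the circles run from -0.60 for mde10 to 1.35 for spo3.

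The wider set of sporulation genes was read from a list of 27, of which 24 were spotted. With P-factor 6 of 24 rose and 2 fell, and with M-factor 9 of 24 rose and 3 fell (limma, fit allowing missing values), beside the shares of 17.4% and 17.1% of all genes with P-factor and of 24.3% and 22.4% with M-factor. In the fit on genes with all 6 values, which holds 19 of them, 6 rose and 2 fell with P-factor and 7 rose and 3 fell with M-factor. Without the P-factor 4 h array the P-factor rises became 3 and the falls 0 of 19. Over all genes they became 311 and 230 of 4113, against 741 and 750 of 4093. Without the P-factor 6 h array the falls became 0 of 19, where 337 of all 4095 genes fell. Without the M-factor 6 h array the M-factor rises became 4 of 19, and fewer of all genes rose too. Calls were thus lost over all genes, and nothing particular to this list is read from these drops. The median of the 24 sporulation genes was 0.15 with P-factor and 0.35 with M-factor. The genes named had the largest absolute mean over both pheromones among those past the test with either. This ranking passes over genes that moved with 1 pheromone, such as bgs2 (0.78 with M-factor and -0.22 with P-factor). mok13, which codes for an alpha-glucan synthase-like protein of the spore wall, had 1.46, 1.54 and 1.25 at 2, 4 and 6 h with P-factor, against 1.28, 1.91 and 2.03 with M-factor. Its mean was 1.41 with P-factor (2.67-fold, adjusted p = 0.000652 by limma) and 1.74 with M-factor (3.34-fold, adjusted p = 0.000128 by limma). The septin genes spn7 and spn2, whose products form a ring-like structure along the forespore membrane, rose to means of 0.96 and 0.66 with P-factor and of 1.42 and 0.83 with M-factor.

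The other 5 named sporulation genes held rises and falls. mes1, which restrains the anaphase-promoting complex so that cells enter the later meiotic division, had means of 0.73 with P-factor and 0.80 with M-factor, and pik3 (also vps34), the phosphatidylinositol kinase gene, had 0.78 with P-factor and 0.57 with M-factor, all past the test. dms1, which codes for a meiotic spindle pole body protein, fell to a mean of -0.82 with P-factor and -1.59 with M-factor (adjusted p = 0.0134 and 0.000373 by limma). meu10, needed for the spore wall to mature, fell to -0.68 with P-factor and -0.69 with M-factor. agn2, which codes for the glucanase that opens the ascus, fell with M-factor (mean -1.31, adjusted p = 0.00289 by limma) and had a mean of -0.34 with P-factor (adjusted p = 0.329 by limma). The spindle pole body genes spo15 and dms1 both had M-factor means below 0, of which that of dms1 passed the test. With P-factor they went opposite ways, spo15 at 0.46, which did not pass, and dms1 at -0.82.

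Several regulators upstream had larger means than the spore formation genes. Of 12 regulators 7 rose with each pheromone and 3 fell with each, where 17.4% of all genes rose and 17.1% fell with P-factor and 24.3% rose and 22.4% fell with M-factor. This list was drawn in part from genes that the study had picked on these arrays, so its direction is not independent evidence. ste11 had a mean of 1.72 with P-factor and 1.92 with M-factor, and mei2, the RNA-binding protein that starts meiosis, had 2.13 with P-factor and 2.59 with M-factor. mei4 had log2 ratios of 0.89, 2.26 and 1.33 at 2, 4 and 6 h with P-factor, against 1.82, 2.57 and 3.36 with M-factor. All 6 values of mei4 were above 0, with means of 1.49 (2.81-fold, adjusted p = 0.00639 by limma) with P-factor and 2.58 (6-fold, adjusted p = 0.000282 by limma) with M-factor. mei3, which codes for the inhibitor of the Pat1 kinase, had 0.96 with P-factor and 1.44 with M-factor, pat1 itself 0.79 with P-factor and 0.80 with M-factor, and rep1, which codes for a factor of premeiotic DNA synthesis genes, 3.11 with P-factor and 3.90 with M-factor. The bZIP factor genes atf31 and atf21 went opposite ways, atf31 at 1.18 with P-factor and 0.92 with M-factor and atf21 at -1.11 with P-factor and -1.43 with M-factor, all past the test. For scale, the cell fusion gene fus1 had a mean of 3.51 with P-factor and 3.08 with M-factor. The MAP kinase gene spk1 had 2.48 with P-factor and 3.52 with M-factor, and the study listed both as induced on these arrays.

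**Figure D4:**
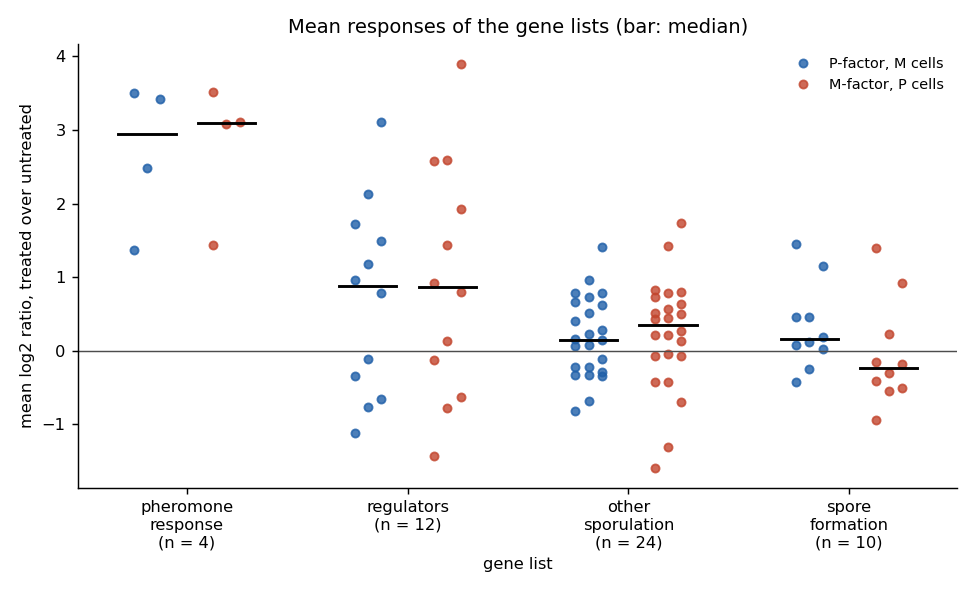
Mean log2 ratio of treated over untreated RNA for each gene of 4 lists (pheromone response, regulators, other sporulation genes and the 10 spore formation genes), with P-factor in M cells left of M-factor in P cells. Each point is a gene and each bar the median of its list. The medians with P-factor and M-factor are 0.15 and -0.24 for the spore formation genes and 2.95 and 3.10 for the pheromone response genes. The study listed all the pheromone response genes shown as induced on these arrays, so their medians are not independent evidence.

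The genes most like mde10 and spo14 were sought by the root mean square difference of the log2 ratios. For mde10 they were cdc10 (0.23), mug15 (0.26) and pvg2 (0.27), over 8 arrays and 4092 genes. cdc10, which codes for a subunit of the factor of G1/S transcription, had 1.04, 1.64 and 1.29 with P-factor, against 1.92, 0.63 and 1.74 with M-factor. Its lowest M-factor value was at 4 h as in mde10, a likeness that follows from how cdc10 was chosen. For spo14 they were pyp2 (0.07), trp663 (0.09) and dma1 (0.10), over the 7 arrays on which spo14 had a value and 4485 genes. pyp2, a MAP kinase phosphatase gene, had 1.41 at 4 h and 0.91 at 6 h with P-factor, against 1.03, 0.87 and 0.76 with M-factor, and like spo14 it had no value at 2 h of P-factor.

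Some of these spots can hold sequence of a neighbour. In the RefSeq annotation spo5 (SPBC29A10.02) overlaps pcf1, spo6 (SPBC1778.04) overlaps lam2, spo15 (SPAC1F3.06c) overlaps gga21, and psy1 (SPCC825.03c) overlaps gbs1 and naa40. The other 6 genes overlap no coding gene, but each overlaps at least 1 long noncoding RNA, mde10 (SPAC17A5.04c) 1 and spo14 (SPBC3H7.01) 2. mde10, spo3, spo15 and spo20 lie on chromosome I, psy1 on chromosome III and the other 5 genes on chromosome II. Where the spotted products lie within each gene is not given in the sources used here, so the part of an overlapping transcript in a ratio was not tested.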

How the data were processed

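RNA of M and P cells was measured on 8 two-colour cDNA arrays. The authors scanned the slides, quantified spots in Imagene and normalised each array by lowess in GeneSpring. The authors deposited log2 ratios (channel 1 over channel 2) in 2 tables, those of M-factor at 2 and 4 h, and natural log ratios in the other 6. No source used here states these bases. Those of the time course columns were worked out from the mean fold changes listed in the study's supplement. The M-factor columns met these for 152 of 155 genes and the P-factor columns for 121 of 155. Any other choice of bases met 13 or fewer. The base of the treated M over P array is taken from its number format. For the untreated M over P array a check of the base against listed values is not given here. No intensities were used, so the number of arrays limits the precision. Treated RNA carried Cy5 on the M-factor 2 h array and Cy3 on the other time course arrays, so dye and time cannot be told apart there.

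Ratios were put on the log2 scale and each gene's spots were averaged. Of 11520 spots, 9522 carried 1 symbol, 134 several and 1864 none, and only the first kind was named, 9474 by gene number and 48 by synonym (RefSeq ASM294v3). Each course's mean was tested against 0 by lmFit and eBayes (limma 3.58.1, R 4.3.3) with Benjamini-Hochberg adjustment at 0.05 over the 4093 genes with all 6 values. A second fit over 4522 genes with at least 2 values in each course gave spo3, spo14, meu14 and the counts over all 10 genes. The p-values measure the spread between time points, which may be technical, and not that of the shared 0 h RNA. The time points of a course were samples of 1 culture. The calculations were checked on simulated data. Python 3.11.15, numpy 2.4.6, pandas 2.3.3 and matplotlib 3.10.9 were used for the rest.

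The labels give both courses the same hours. Deviations of same-hour arrays from their course means had correlations of 0.35 (2 h), 0.104 (4 h) and 0.349 (6 h) across genes, and arrays of different hours had 0.037 or less. Deviations from a course mean sum to 0 for each gene, so part of this contrast is built in. It is a weak check that the hours pair the arrays.

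The genes and lists were chosen with earlier results of these data known. Named were all 10 genes and ste11, mei2, mei3, mei4, fus1 and spk1. Up to 8 other sporulation genes and 4 further regulators were added. These had the largest absolute mean over both pheromones among those past the test with either. The 3 genes nearest to each of the 10 that passed with both pheromones were named too. Ste11 sites were copied from the study's supplement. Alternatives changed the centring, log base, spots, floor (a ratio of 0.01), missing values, block, fit, prior, test, arrays and fold. They overlap in part, since reading every column as log2 or every column as natural log gives the same calls. Leaving out an array of the other course also leaves a course's mean as it was. For spo3, spo14 and meu14 most of the alternatives were run in the fit with missing values, which was added after the data were seen.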

Additional observations from a re-analysis of the deposited data

How the results depend on the processing

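The limits of these values are 3 time points per course standing in for replicates, no intensities, 2 spots per gene and a P-factor 2 h array without spo3, spo14 and meu14. Of the 7 genes with all 6 values, 1 rose with P-factor, 1 rose with M-factor and 1 fell with M-factor. The count that rose with P-factor was 2 after quantile normalisation and with each course fitted on its own (spo15 added), 2 with missing values allowed (of 10, spo14 added) and 0 by the methods' t-test, and ranged from 1 to 2 when 1 array was left out. The count that fell with P-factor was 1 with each course fitted on its own (spo4, adjusted p = 0.0404 by limma) and 0 when any 1 array was left out. The count that rose with M-factor was 2 with missing values allowed and 0 by the methods' t-test, and ranged from 1 to 2 when 1 array was left out. The count that fell with M-factor was 2 of 4 genes with the first spot alone, where 444 of all 2498 genes fell. It was 2 with missing values allowed. It was 0 with the second spot alone, each course on its own, a test of more than 1.5-fold and the methods' t-test. It ranged from 0 to 2 when 1 array was left out. It was 0 without the M-factor 4 h array and without the M-factor 6 h array, where spo20 was lost. The difference between the courses was called for 1 gene after quantile normalisation (spo15) and for 0 when any 1 array was left out, as was the slope. By the rule of a fixed fold at each time point, 2 genes rose with M-factor at 1.5-fold (mde10 and spo14) and 0 with P-factor at 3-fold. The shares of all genes at these folds were not worked out, so nothing is read from these counts. The cause of these changes was not tested.

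With the time point as a replicate block the count that fell with M-factor was 2, since spo6 passed (mean -0.54, adjusted p = 0.0322 by limma), and the block changed no other call among the 10 genes, with missing values allowed for spo3, spo14 and meu14. mde10 rose with P-factor and with M-factor under 18 of 19 partly overlapping alternatives each. The exception was the methods' t-test, a one-sample test on 3 values, with adjusted p of 0.0858 with P-factor and 0.171 with M-factor, which called 6 genes of 4093 with P-factor and 5 with M-factor after adjustment. The methods name no threshold for it, whereas the legend of the paper's gene category figure asks for p of at most 0.01 without naming the test. At an unadjusted p of 0.05 the t-test called 1507 genes with P-factor and 1168 with M-factor, of the 7 mde10 alone with each. At 0.01 it called 492 genes with P-factor and 324 with M-factor, and 0 of the 7. Reading every column as log2, or every column as natural log, left each call of the 10 genes as it was, although the genes called over all 4093 with P-factor became 364 up and 325 down, against 741 and 750. In a test of more than 1.5-fold they became 140 and 68 with P-factor and 229 and 192 with M-factor, against 985 and 948. Without the P-factor 4 h array they became 311 and 230, and without the P-factor 6 h array 381 and 337. Genes called higher or lower for the difference between the courses were 105 and 85, and between 7 and 159 and between 6 and 137 when 1 array was left out. The means of mde10 and spo14, and those of spo3 and spo20 with M-factor, kept their sign under each alternative run, whereas the M-factor mean of spo6, called with the first spot alone and under the block, was 0.06 with the second spot alone. The search for Ste11 sites with 1 mismatch was not run, since promoter sequence was not used here.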

Other observations

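With both direct arrays of M against P cells read as natural log, a pair of other sporulation genes went past 2-fold, which none of the 10 spore formation genes did. mok13 had log2 ratios of M over P cells of 1.35 after 6 h of treatment and 1.15 untreated, with spots of 1.38 and 1.33 treated and of 1.09 and 1.20 untreated. With the natural log base used here, mok13 was thus more than 2-fold higher in untreated M cells. No check of that base is given for the untreated array, and read as log2 the untreated value would be 0.80, short of 2-fold. The treated value rests on a log base that is not settled, and read as log2 it would be 0.94, short of 2-fold. isp3, which codes for a protein of the outer spore surface and was chosen here after its values were seen, had -0.02 after treatment and 1.65 untreated, with spots of -0.02 and -0.01 treated and of 1.53 and 1.77 untreated. In the time courses isp3 had a mean of 0.14 with P-factor (adjusted p = 0.627 by limma) and -0.04 with M-factor (adjusted p = 0.891 by limma). Its values at 6 h were 0.16 with P-factor and 0.47 with M-factor, which do not come near the change of the direct arrays. Each direct array is single and none of these ratios was tested.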
